A study of Dichomitus squalens with 16 samples.

Results

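The gene DICSQDRAFT_147974 of the white-rot fungus Dichomitus squalens is described in the deposited tables as a 14 alpha-demethylase, and its first KEGG match is sterol 14-demethylase of the P450 family 51. DICSQDRAFT_63210 and DICSQDRAFT_127802 lie close after it in the gene order of the RefSeq list, and neither has a description beyond hypothetical protein. These 3 genes, of 11410 with reads, were taken by their protein numbers, 147974, 63210 and 127802. They had been selected on measured values of these same libraries, but which values were used is not recorded. The choice was taken to rest on wood against non-woody material, so those levels are given without a test. The tests concern the differences between the woods, between the non-woody materials and between days. If such differences also entered the choice, their p values do not stand as independent tests. The rule by protein numbers names no cut-off on a value, but whether one was used in the selection is not recorded.

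Strain LYAD-421 SS1 was grown on sawdust of spruce (Picea abies) or aspen (Populus tremula), on wheat bran or on cotton seed hulls, the last pair as powders, and mycelium with its substrate was taken on days 16 and 9. All cultures held 1 g of material in 100 ml of low-nitrogen medium with asparagine and succinate. The precultures also held 6.8 mM glycerol. The same medium is named for the main cultures, and whether these held glycerol too is not stated. Each of the 8 groups (4 substrates on 2 days) has 2 libraries, 16 in all, with 7.98 to 8.85 M unique reads each. Whether both replicates of a group came from different flasks is not stated, and the spread behind every p may be technical only. The labels do not say whether the libraries keep the strand, so reads of overlapping genes cannot be told apart. In such bulk samples fewer cells of a type and less RNA per cell cannot be told apart either.

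Sterol 14 alpha-demethylase is a cytochrome P450 that removes the methyl group at carbon 14 of lanosterol or a close derivative, a required step on the way to ergosterol, the main membrane sterol of most fungi. It is the target of azole fungicides. It takes its electrons from NADPH through a P450 reductase. Some fungi carry more than 1 copy of the gene. Genes of fungal secondary metabolism often lie side by side and are expressed together, and enzymes of primary metabolism, sterol steps among them, can have extra copies in such groups.

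The demethylase was read mainly on wood, with its highest levels on day 9 on both woods, and on day 16 it was higher on spruce than on aspen. Levels are given as RPKM, reads scaled to the length of the gene model and to the reads of the library. On spruce it had 61.0 and 67.1 RPKM on day 16 and 139.5 and 173 RPKM on day 9. On aspen it had 13.1 and 11.4 RPKM on day 16 and 165 and 145 RPKM on day 9. The 2 woods overlapped on day 9 and lay apart on day 16. On wheat bran it had 0.511 and 0.885 RPKM on day 16 and 3.99 and 2.46 RPKM on day 9. On cotton seed hulls it had 0.548 and 0.668 RPKM on day 16 and 1.00 and 0.376 RPKM on day 9. All non-woody libraries were thus below every wood library of the same day. These low values rest on 5 to 53 reads per library, which covered 13.75% to 76.3% of the gene model by the deposited coverage, against 153 to 2302 reads and 97.97% to 99.94% on wood.

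Gene 63210, whose function is not known, followed the same order at a higher level per length. Spruce libraries had 593 and 721 RPKM on day 16 and 1042 and 1233 RPKM on day 9. Aspen libraries had 172 and 155 RPKM on day 16 and 1186 and 1032 RPKM on day 9. Spruce and aspen overlapped on day 9, and on day 16 both spruce libraries were above both aspen libraries. Wheat bran libraries had 9.27 and 9.81 RPKM on day 16 and 88.0 and 83.5 RPKM on day 9. Cotton seed hull libraries had 12.5 and 8.08 RPKM on day 16 and 11.04 and 6.82 RPKM on day 9. Wheat bran on day 9 stood above the other non-woody groups, which overlapped one another.

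Gene 127802, also of unknown function, had levels closer to those of the demethylase. It reached 87.0 and 86.2 RPKM on spruce on day 16 and 208 and 202 RPKM on spruce on day 9. It reached 27.6 and 13.3 RPKM on aspen on day 16 and 217 and 202 RPKM on aspen on day 9. The replicates of aspen on day 16 were the widest apart of its groups, and spruce and aspen again overlapped on day 9. On wheat bran it had 3.34 and 3.09 RPKM on day 16 and 12.9 and 9.67 RPKM on day 9. On cotton seed hulls it had 2.39 and 1.98 RPKM on day 16 and 3.82 and 2.87 RPKM on day 9. Its non-woody libraries held 7 to 45 reads each.

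**Figure D1:**
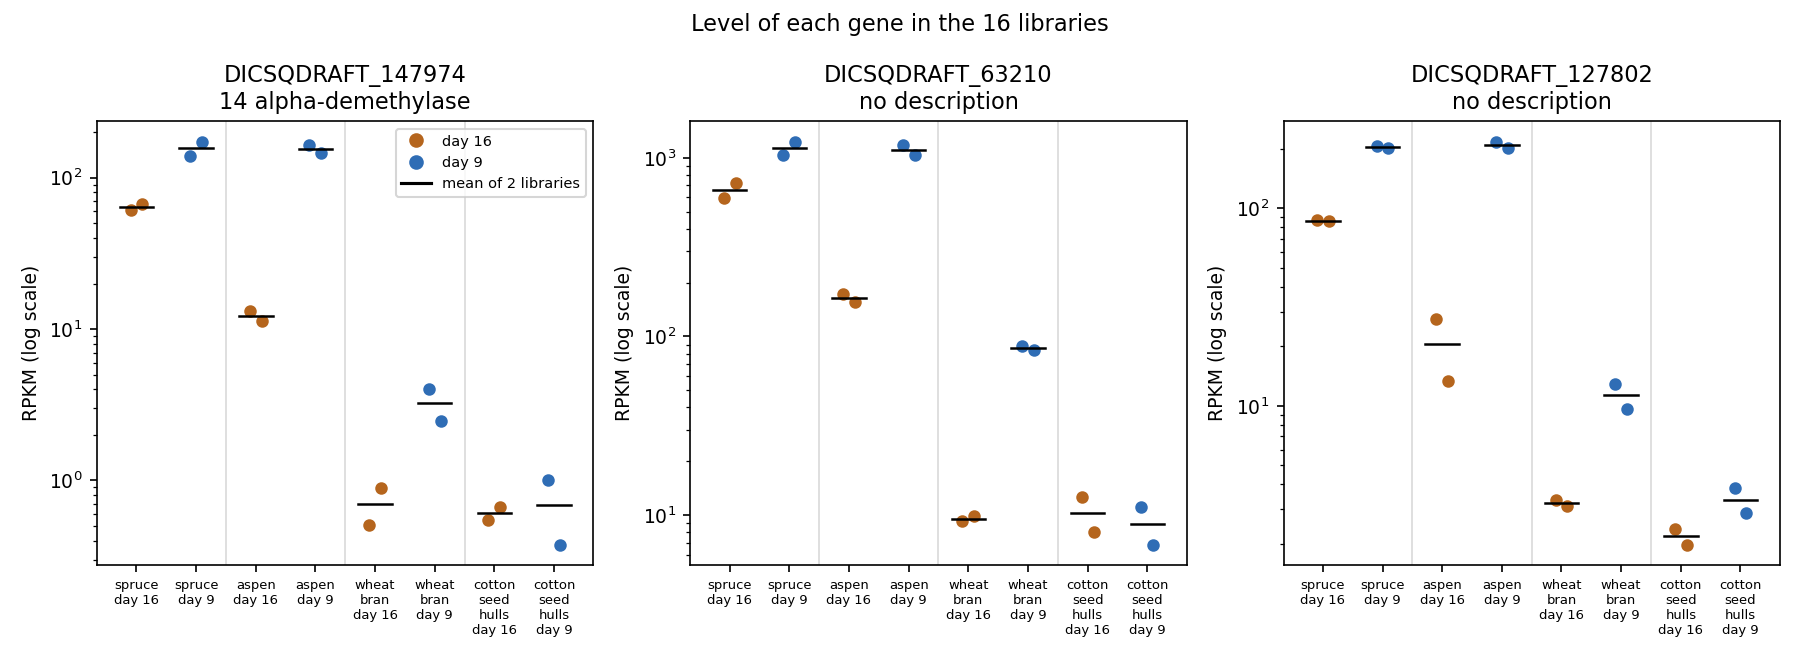
RPKM of each of the 3 genes (log axis, 1 panel per gene) in the 16 libraries, by substrate and day. Points are libraries and black lines the means of 2 libraries. In every panel the day 9 wood libraries are highest, spruce on day 16 lies above aspen on day 16, and wheat bran on day 9 lies above the other non-woody groups.

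In the order of the group means, places 1 to 5 were taken by the same groups for all 3 genes, apart from the order of the 2 woods on day 9, whose ranges overlapped. Spruce on day 16 had place 3, aspen on day 16 place 4 and wheat bran on day 9 place 5, and no ranges overlapped between these neighbours in the order. The last 3 places, wheat bran on day 16 and cotton seed hulls on both days, overlapped for the demethylase and for gene 63210. For gene 127802 wheat bran on day 16 (3.09 to 3.34 RPKM) lay above cotton seed hulls on day 16 (1.98 to 2.39 RPKM). The balance between the genes also varied. The ratio of gene 63210 to the demethylase, in RPKM, was 9.73 and 10.8 on spruce on day 16 and 7.11 and 7.47 on spruce on day 9. On aspen it was 13.1 and 13.7 on day 16 and 7.13 and 7.18 on day 9. The ratio was therefore higher in every day 16 wood library than in any day 9 wood library.

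As a description of the choice, wood (the mean of spruce and aspen) was above non-woody material (wheat bran and cotton seed hulls averaged) for all 3 genes on both days. On day 16 the log2 fold change was 4.92 ± 0.20 (standard error) for the demethylase, 4.56 ± 0.13 for gene 63210 and 3.49 ± 0.22 for gene 127802. On day 9 it was 6.42 ± 0.16 for the demethylase, 5.06 ± 0.12 for gene 63210 and 4.79 ± 0.16 for gene 127802. In RPKM, all 4 wood libraries were above all 4 non-woody libraries in 43.1% of the tested genes on day 16 and in 36.4% on day 9. Scaled to library size only, as RPKM is, the median log2 fold change over all tested genes was 0.51 on day 16 and 0.31 on day 9. In the test described next it was 0.03 on both days, so these shares and its calls rest on unlike scalings. By the test described next, 29.7% of the tested genes were called higher and 30% lower on wood on day 16, and 37.4% higher and 34.2% lower on day 9.

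The 2 woods were then compared. All counts and adjusted p values below are from edgeR's quasi-likelihood test with Benjamini-Hochberg adjustment over 10584 genes, with a threshold of 0.05. On day 16 all 3 genes were higher on spruce than on aspen, where 11.5% of the tested genes were called higher. The log2 fold change was 2.30 ± 0.17 for the demethylase (adjusted p = 5.66e-07), 1.92 ± 0.14 for gene 63210 (adjusted p = 4.07e-07) and 2.00 ± 0.20 for gene 127802 (adjusted p = 3.47e-06). For gene 127802 the value was 2.60 without replicate 1 of aspen and 1.57 without replicate 2 of aspen, with the call kept in both cases. On day 9 none of the 3 was called, where 21.4% of the tested genes were called in either direction. The day 9 log2 fold changes lay between -0.25 ± 0.15 for gene 127802 and -0.17 ± 0.13 for gene 63210, with adjusted p from 0.277 to 0.392. With library size as the only scaling, the day 9 value was 0.013 for the demethylase and 0.037 for gene 63210, so neither has a direction on that day.

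Between the non-woody materials, wheat bran carried more of all 3 transcripts than cotton seed hulls on day 9, where 15.2% of the tested genes were called higher. Gene 63210 had a log2 fold change of 3.02 ± 0.20 (adjusted p = 3.91e-08), the demethylase 1.96 ± 0.36 (adjusted p = 0.000943) and gene 127802 1.51 ± 0.36 (adjusted p = 0.00433). The value of the demethylase rests on 14 and 5 reads on cotton seed hulls. It ran from 1.44 to 2.82 without 1 library, with the highest value without replicate 1 of cotton seed hulls. On day 16 none of the 3 was called, where 31.4% were called in either direction. The log2 fold change was then -0.27 ± 0.52 for the demethylase, -0.58 ± 0.25 for gene 63210 and 0.09 ± 0.52 for gene 127802, so the standard errors leave room for differences of either sign in the demethylase and gene 127802. Without replicate 2 of cotton seed hulls on day 16 gene 63210 was lower on wheat bran (-0.88, adjusted p = 0.0257).

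Over time all 3 genes fell on both woods. On spruce, where 27% of the tested genes were called lower on day 16 than on day 9, the demethylase fell by 1.30 ± 0.15 on the log2 scale (adjusted p = 5.56e-06). Gene 63210 fell by 0.81 ± 0.14 (adjusted p = 0.000157) and gene 127802 by 1.25 ± 0.16 (adjusted p = 8.65e-06). On aspen, where 32.1% were called lower and 31.5% higher, the demethylase fell by 3.80 ± 0.17 (adjusted p = 1.65e-10) and gene 63210 by 2.90 ± 0.15 (adjusted p = 3e-10). The log2 fold change of gene 127802 on aspen was -3.499 ± 0.19 (adjusted p = 2.54e-10). It ran from -4.11 to -3.08 without 1 library, with -4.11 without replicate 1 of aspen on day 16. The difference of these day effects, spruce minus aspen, passed the test for all 3 genes, where 10.8% of the tested genes were called higher. It was 2.50 ± 0.22 for the demethylase (adjusted p = 5.45e-06), 2.09 ± 0.19 for gene 63210 (adjusted p = 5.7e-06) and 2.24 ± 0.25 for gene 127802 (adjusted p = 1.89e-05). Without 1 library the value of gene 127802 ran from 1.82 to 2.85, and the call was kept. The 2.85 was without replicate 1 of aspen on day 16.

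On wheat bran the 3 genes were also lower on day 16 than on day 9, where 8.16% of the tested genes were called lower. The demethylase fell by 2.18 ± 0.36 (adjusted p = 0.000768), gene 63210 by 3.15 ± 0.19 (adjusted p = 6.24e-08) and gene 127802 by 1.78 ± 0.36 (adjusted p = 0.00243). On cotton seed hulls none of the 3 was called, where 28.4% were called in either direction, and the log2 fold changes were 0.06 ± 0.52 for the demethylase, 0.45 ± 0.25 for gene 63210 and -0.37 ± 0.51 for gene 127802. The difference of day effects, wheat bran minus cotton seed hulls, was called lower for 2 of the 3 genes, where 5.1% of the tested genes were called lower. It was -3.60 ± 0.33 for gene 63210 (adjusted p = 8.3e-06) and -2.24 ± 0.66 for the demethylase (adjusted p = 0.0477). Gene 127802 had -1.42 ± 0.65 and was not called (adjusted p = 0.215). The call for the demethylase rests on few reads, and it was lost with 6 of the 8 libraries concerned left out in turn. These were both libraries of cotton seed hulls on day 16 (-2.34 without replicate 1, -2.09 without replicate 2), replicate 2 of cotton seed hulls on day 9 (-1.71), replicate 1 of wheat bran on day 9 (-1.85) and both libraries of wheat bran on day 16 (-1.90 without replicate 1, -2.67 without replicate 2), with adjusted p from 0.0567 to 0.207. Without replicate 1 of cotton seed hulls on day 9 the call was kept at -3.09.

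Among the genes around the demethylase, the 3 that directly follow gene 127802 were also higher on wood on both days. After the demethylase come DICSQDRAFT_171266, gene 63210, gene 127802, 2 genes described as cytochrome P450 (DICSQDRAFT_107694 and DICSQDRAFT_162100) and DICSQDRAFT_88133. The last has no description, and its first KEGG match is 3-keto steroid reductase, the enzyme that reduces the keto group left on carbon 3 of a sterol after removal of a methyl group at carbon 4. DICSQDRAFT_171266, which lies between the demethylase and gene 63210, had 0 to 11 reads in every library and was not tested. So the 3 genes are not all direct neighbours of one another in that order.

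The 3 genes that follow had the same order of groups in their levels on wood, apart from spruce and aspen on day 9. On that day both aspen libraries lay above both spruce libraries for DICSQDRAFT_107694, and below them for DICSQDRAFT_88133. DICSQDRAFT_107694 had 178 and 194 RPKM on spruce on day 16, against 74.9 and 57.9 RPKM on aspen on day 16. DICSQDRAFT_162100 had 85.4 and 93.8 RPKM on spruce on day 16, against 30.9 and 25.2 RPKM on aspen on day 16. DICSQDRAFT_88133 had 83.9 and 84.9 RPKM on spruce on day 16, against 35.8 and 27.6 RPKM on aspen on day 16. Spruce was above aspen in every such library. The log2 fold changes for spruce against aspen on day 16 were 1.39 ± 0.11 for DICSQDRAFT_107694 (adjusted p = 1.99e-07), 1.59 ± 0.11 for DICSQDRAFT_162100 (adjusted p = 4.48e-08) and 1.33 ± 0.12 for DICSQDRAFT_88133 (adjusted p = 9.31e-07). On day 9 DICSQDRAFT_107694 was lower on spruce (-0.36, adjusted p = 0.0200), a call that 7 of 13 alternatives kept, and the other 2 were not called. Wheat bran against cotton seed hulls on day 9 gave 0.41 for DICSQDRAFT_107694, 0.95 for DICSQDRAFT_162100 and 0.10, not called, for DICSQDRAFT_88133. The 3 chosen genes had 1.51 to 3.02. Both DICSQDRAFT_162100 (0.90) and DICSQDRAFT_88133 (0.81) were called higher on wheat bran on day 16, where 31.4% of the tested genes were called in either direction. DICSQDRAFT_107694 and the 3 chosen genes were not called there.

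For these 3 genes wood against non-woody material was tested. They lie beside genes chosen for it, and they were picked out here as higher on wood. Their p values for it therefore do not stand as independent tests. On day 16 the log2 fold change was 1.49 ± 0.08 for DICSQDRAFT_107694 (adjusted p = 7.56e-11), 3.54 ± 0.10 for DICSQDRAFT_162100 (adjusted p = 2.7e-14) and 1.59 ± 0.09 for DICSQDRAFT_88133 (adjusted p = 2.33e-10). On day 9 it was 2.94 ± 0.08, 4.68 ± 0.09 and 2.90 ± 0.09 in the same order of genes, with adjusted p of at most 1.8e-14. These genes also had higher levels on non-woody material than the demethylase. On cotton seed hulls on day 16 DICSQDRAFT_107694 still had 24.3 and 26.6 RPKM and DICSQDRAFT_88133 6.74 and 9.01 RPKM, where the demethylase had 0.548 and 0.668 RPKM. From day 9 to day 16 the 3 genes fell on spruce by 0.88 ± 0.11, 0.96 ± 0.10 and 1.39 ± 0.11 and on aspen by 2.64 ± 0.11, 2.75 ± 0.11 and 2.80 ± 0.12 on the log2 scale. Spruce minus aspen, the difference of these day effects was 1.76, 1.79 and 1.41, with adjusted p of at most 1.93e-05. The day effects on wheat bran were -0.59, -0.74 and -0.44 in the same order of genes. Over time on cotton seed hulls DICSQDRAFT_162100 (-0.69) and DICSQDRAFT_88133 (-1.14) were called lower, where 28.4% of the tested genes were called in either direction. DICSQDRAFT_107694 and the genes chosen at the start were not called there.

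**Figure D2:**
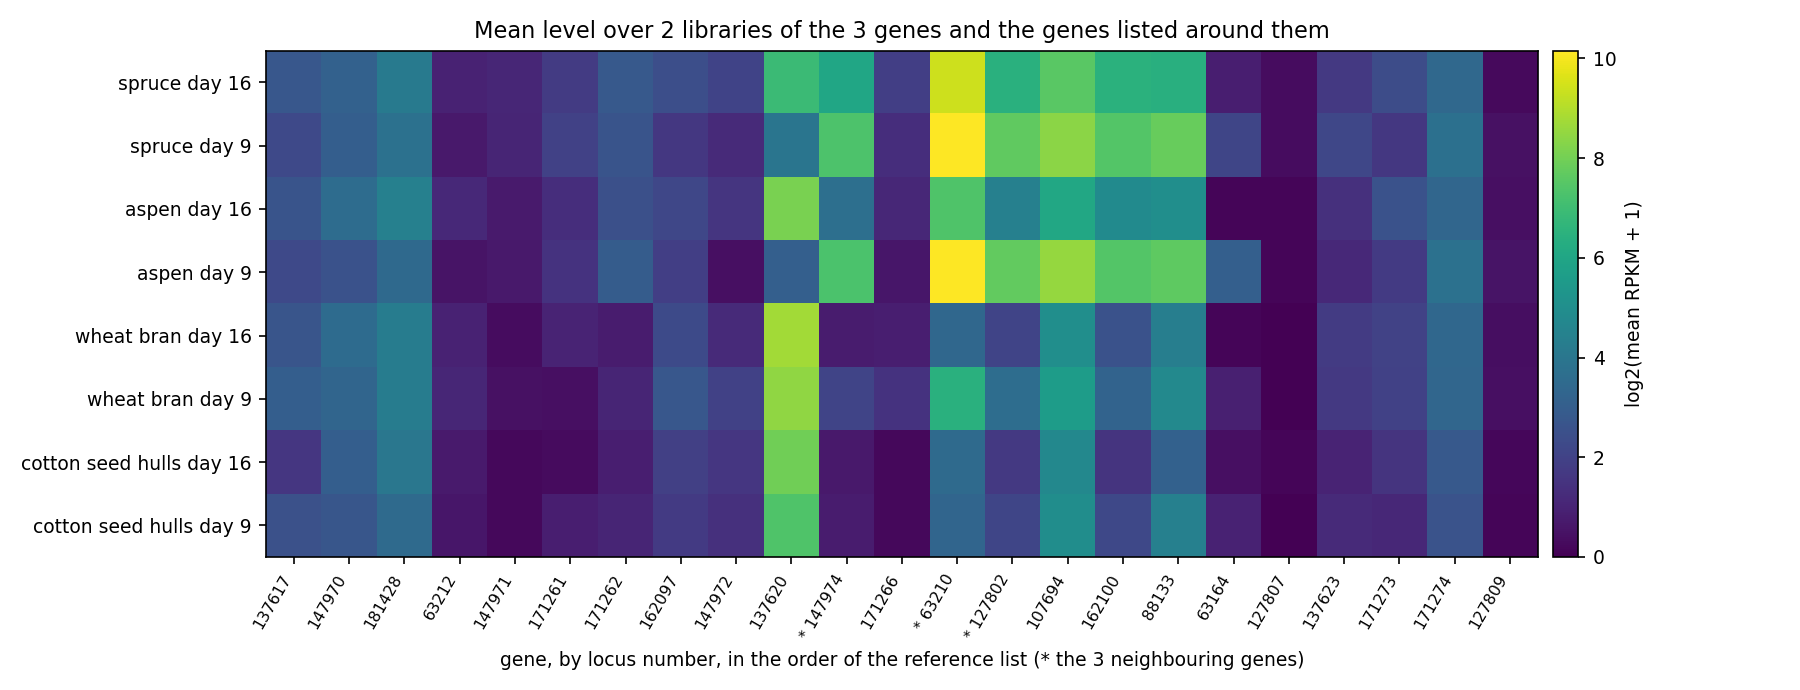
Mean level over 2 libraries, as log2(mean RPKM + 1), of the 3 genes (asterisks) and the genes listed around them, in the order of the reference list, for the 8 groups. The run from gene 63210 to DICSQDRAFT_88133 is bright on wood, most of all on day 9, while the lipase gene DICSQDRAFT_137620, just before the demethylase, is bright on non-woody material.

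The gene just before the demethylase was lower on wood, most of all on day 9. DICSQDRAFT_137620, described as an extracellular triacylglycerol lipase precursor, a secreted enzyme that splits fats, had 111 and 132 RPKM on spruce on day 16 and 18.8 and 9.995 RPKM on spruce on day 9. On aspen it had 259.5 and 298 RPKM on day 16 and 7.88 and 7.04 RPKM on day 9. Its non-woody libraries lay between 163 and 436 RPKM over both days. It was thus lowest in the day 9 wood libraries, the ones in which the demethylase was highest, while on day 16 the ranges of wood and non-woody libraries overlapped. Wood against non-woody material gave -1.32 ± 0.13 on day 16 (adjusted p = 1.63e-06) and -4.81 ± 0.16 on day 9 (adjusted p = 1.42e-11). From day 9 to day 16 it rose by 3.06 ± 0.21 on spruce (adjusted p = 9.7e-08) and by 5.08 ± 0.23 on aspen (adjusted p = 1.01e-09) on the log2 scale.

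Of the 21 loci taken around the 3 genes (10 on each side and the 1 between), 15 had enough reads to be tested. On day 16, 6 of the 15 were called higher on wood and 2 lower, against 29.7% and 30% of all tested genes, and on day 9, 8 were called higher and 4 lower, against 37.4% and 34.2%. With library size as the only scaling the split was 8 higher and 1 lower on day 16 and 8 higher and 2 lower on day 9. These counts are a description from which nothing is read, since some of the genes passed the filter on low reads only through the libraries in which they were high. DICSQDRAFT_147971 and DICSQDRAFT_171261 (first KEGG match an E3 ubiquitin-protein ligase) had 0 to 5 reads in every non-woody library and at most 14 and 13 reads on wood. DICSQDRAFT_63164 had 14 to 36 reads on wood on day 9 and 0 to 6 reads in every other library. DICSQDRAFT_171262, on the side of the lipase, had 33 to 75 reads on wood and 6 to 12 reads on non-woody material, with 2.27 ± 0.28 on day 16 and 2.20 ± 0.25 on day 9. DICSQDRAFT_171274, whose first KEGG match is choline dehydrogenase, was called higher on day 9 (0.61 ± 0.14) and not called on day 16 (-0.16 ± 0.14). Its neighbour DICSQDRAFT_171273, an FAD/NAD(P)-binding domain protein with the same KEGG match, was not called on either day (0.43 ± 0.28 on day 16 and -0.013 ± 0.39 on day 9).

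The tables describe a further gene, DICSQDRAFT_124779, as lanosterol 14-alpha-demethylase, with the same KEGG match as DICSQDRAFT_147974. It was present on every substrate. It had 23.3 and 25.0 RPKM on spruce on day 16 and 132 and 117 RPKM on spruce on day 9. It had 23.8 and 28.1 RPKM on aspen on day 16 and 175 and 155 RPKM on aspen on day 9. On wood on day 9 the 2 demethylase genes were therefore at similar levels per length. On wheat bran DICSQDRAFT_124779 had 16.3 and 18.2 RPKM on day 16 and 26.0 and 28.9 RPKM on day 9. On cotton seed hulls it had 15.02 and 17.3 RPKM on day 16 and 24.9 and 31.2 RPKM on day 9. Its non-woody levels were above those of DICSQDRAFT_147974 in every library.

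Of the summed RPKM of the 2 genes, DICSQDRAFT_147974 made up 72.4% and 72.8% on spruce on day 16, against 28.8% and 35.5% on aspen on day 16. On day 9 it made up 51.4% and 59.6% on spruce and 48.3% and 48.6% on aspen. Over the 8 non-woody libraries its share ran from 1.19% to 13.3%. DICSQDRAFT_124779 fell from day 9 to day 16 on spruce by 2.38 ± 0.12 (adjusted p = 1.14e-10) and on aspen by 2.81 ± 0.12 (adjusted p = 8.53e-12). It was not called between spruce and aspen on day 16 (-0.19 ± 0.12, adjusted p = 0.283), and the difference of its day effects was 0.42 (adjusted p = 0.0830). The difference between the 2 genes in these contrasts was not itself tested. On wood against non-woody material DICSQDRAFT_124779 was higher on day 9 (2.09 ± 0.08, adjusted p = 5.6e-13) and not called on day 16 (0.10 ± 0.09, adjusted p = 0.337), but with library size as the only scaling it was higher on day 16 as well (0.58, adjusted p = 2.41e-05).

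**Figure D3:**
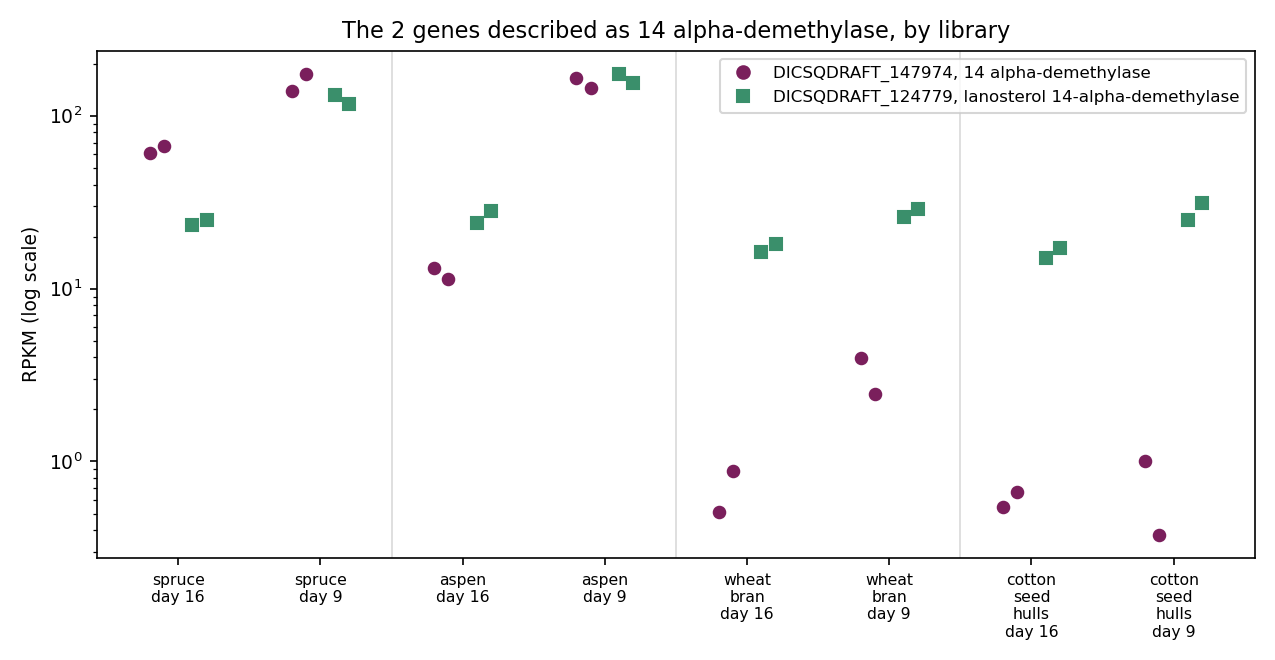
RPKM (log axis) of DICSQDRAFT_147974 (circles) and DICSQDRAFT_124779 (squares) in each library, by substrate and day. The 2 genes are close on day 9 wood, DICSQDRAFT_147974 is above on spruce on day 16, and DICSQDRAFT_124779 is above in aspen on day 16 and in all non-woody libraries.

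Other genes of ergosterol synthesis were taken by name and KEGG match, 25 in all over 20 steps, DICSQDRAFT_88133 and DICSQDRAFT_124779 among them. On day 9, 22 of 25 were called higher on wood and 1 lower, against 37.4% and 34.2% of all tested genes, with a median log2 fold change of 1.60 against 0.03 over all genes tested. On day 16, 7 were higher and 7 lower (median -0.0074 against 0.03), which is close to the 29.7% and 30% over all tested genes. With library size as the only scaling the day 16 split was 14 higher and 2 lower, so the day 16 direction of the list depends on the scaling. From day 9 to day 16, 20 of the 25 were lower on spruce (median -1.39), against 27% of all tested genes. On aspen 23 were lower and 1 higher (median -1.46), against 32.1% and 31.5%. On spruce against aspen on day 16, 2 were higher and 5 lower (median -0.21 against -0.02), where 11.5% of the tested genes were called higher and 12% lower. On day 9, 14 were lower on spruce than on aspen and 1 higher (median -0.50), where 1391 of the 10584 tested genes were called lower and 874 higher. With library size as the only scaling 9 were lower and 1 higher on that day. The difference of day effects, spruce minus aspen, was called higher for 9 and lower for 2 (median 0.34), against 10.8% and 8.22% of all tested genes. It thus holds the day 9 difference between the woods as well as that of day 16. With library size as the only scaling it was called higher for 4 and lower for 2 (median 0.22).

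The mevalonate steps build the isoprene units. The 5 genes listed for them were all higher on wood on day 9, against 37.4% of all tested genes. No gene in the list stands for mevalonate kinase. The log2 fold change was 1.81 ± 0.13 for HMG-CoA synthase (DICSQDRAFT_92577), 1.95 ± 0.13 for HMG-CoA reductase (DICSQDRAFT_102019), the main control point of the pathway in yeast and animals, and 1.24 ± 0.08 for phosphomevalonate kinase (DICSQDRAFT_50463). It was 2.53 ± 0.14 for diphosphomevalonate decarboxylase (DICSQDRAFT_94421) and 0.97 ± 0.08 for isopentenyl diphosphate isomerase (DICSQDRAFT_130980). For all but the isomerase, replicate 1 was above replicate 2 on both woods on day 9. The decarboxylase had 249 and 167 RPKM on spruce and 381 and 239 RPKM on aspen. On day 16 HMG-CoA synthase, HMG-CoA reductase and phosphomevalonate kinase were lower on wood (-0.61 ± 0.13, -1.04 ± 0.13 and -0.35 ± 0.09), against 30% of all tested genes. The decarboxylase was not called (-0.22 ± 0.15) and the isomerase was higher (0.47 ± 0.08), against 29.7% of all tested genes. With library size as the only scaling, 2 genes of the whole ergosterol list were lower on day 16, against 7 here. The 3 lower calls were therefore not all kept. The isomerase was the other list gene, beside DICSQDRAFT_88133, that was higher on spruce than on aspen on day 16 (0.90 ± 0.11, adjusted p = 1.99e-05).

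Of the steps that make squalene and lanosterol, squalene epoxidase (DICSQDRAFT_59311, 1.77 ± 0.08) and lanosterol synthase (DICSQDRAFT_81565, 1.02 ± 0.10) were higher on wood on day 9, while squalene synthase (DICSQDRAFT_125356) was lower (-0.29 ± 0.05). On day 16 squalene epoxidase was not called (-0.19 ± 0.09), and lanosterol synthase (-0.37 ± 0.10) and squalene synthase (-0.38 ± 0.05) were lower on wood. The 5 genes with a farnesyl diphosphate synthase match share a KEGG entry and may serve other products. Of them, 4 were higher on wood on day 9, against 37.4% of all tested genes. They were DICSQDRAFT_109488 (4.11 ± 0.44), DICSQDRAFT_113606 (1.62 ± 0.11), DICSQDRAFT_141060 (0.89 ± 0.18) and DICSQDRAFT_184036 (0.26 ± 0.09). The replicates of DICSQDRAFT_109488 lay wide apart on day 9 wood, with 166 and 49.9 RPKM on spruce and 335 and 139 RPKM on aspen. DICSQDRAFT_140688 was not called (0.24 ± 0.24), and on day 16 only DICSQDRAFT_184036 was called (0.41 ± 0.09). Sterol acyltransferase (DICSQDRAFT_153227), which stores sterols as esters, had -0.76 ± 0.10 on day 16 and 0.90 ± 0.10 on day 9.

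The steps on the sterol ring and side chain, among which the demethylase acts, were higher on wood on day 9 for 10 of 11 genes. Over all tested genes 37.4% were called higher on that day. The C-4 methyl sterol oxidase (DICSQDRAFT_61779) had 102 and 93.9 RPKM on spruce on day 16 and 496 and 513 RPKM on spruce on day 9, and its log2 fold change for wood was 0.36 ± 0.08 on day 16 and 2.66 ± 0.08 on day 9. The C-5 sterol desaturase (DICSQDRAFT_166781) had 0.27 ± 0.09 on day 16 and 2.67 ± 0.09 on day 9, and the C-22 desaturase (DICSQDRAFT_66936), a further P450, 1.11 ± 0.10 and 2.31 ± 0.09. The C-24(28) reductase (DICSQDRAFT_100750) had 0.50 ± 0.06 on day 16 and 1.60 ± 0.06 on day 9. These 4 genes and DICSQDRAFT_88133 were the ones of the 11 that were called higher on wood on both days. On day 16, 5 of the 11 were higher and 1 lower, against 29.7% and 30% of all tested genes. The share of all tested genes called higher on both days was not counted. C-8 isomerase (DICSQDRAFT_147751, 2.14 ± 0.12), C-24 methyltransferase (DICSQDRAFT_141756, 1.01 ± 0.10) and C-14 reductase (DICSQDRAFT_179308, 0.83 ± 0.06) were higher on day 9 and not called on day 16. The other gene with a 3-keto steroid reductase match, DICSQDRAFT_162108, had -0.33 ± 0.09 on day 16 and 0.25 ± 0.08 on day 9, and C-4 sterol decarboxylase (DICSQDRAFT_56128) was called on neither day (-0.11 ± 0.08 and -0.17 ± 0.08). All 11 were lower on day 16 than on day 9 on both woods. Of all tested genes, 27% were called lower in that comparison for spruce and 32.1% for aspen.

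**Figure D4:**
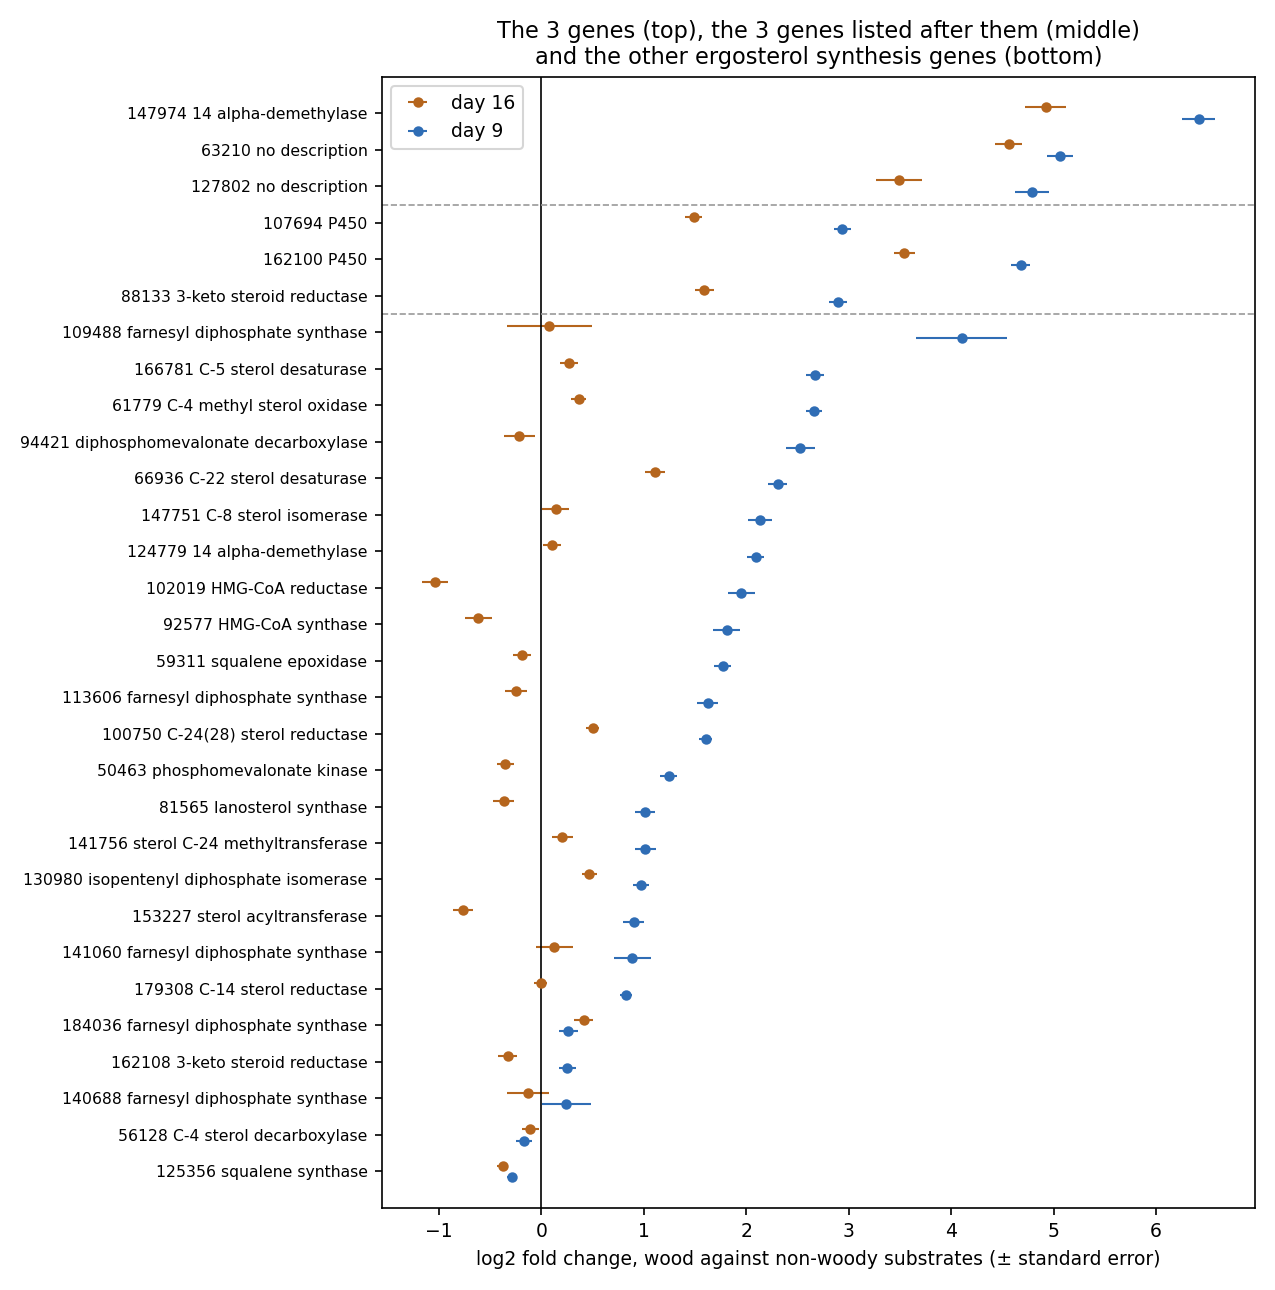
Log2 fold change (± standard error) of wood against non-woody substrates on day 16 and day 9 for the 3 genes (top, given without a test), the 3 genes listed after them (middle) and the other ergosterol synthesis genes (bottom). On day 16 the pathway genes lie between -1.04 and 1.11, and the top 6 genes between 1.49 and 4.92.

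Redox partners of the P450 enzymes, 8 genes described or matched as P450 reductase, cytochrome b5 or its reductase, were higher on wood on day 9 in 6 cases and lower in none, against 37.4% and 34.2% of all tested genes (median 0.86 against 0.03). The P450 oxidoreductase DICSQDRAFT_179346 had 112 and 117 RPKM on spruce on day 16 and 249 and 206 RPKM on spruce on day 9, and its log2 fold change for wood was -0.11 ± 0.06, not called, on day 16 and 1.41 ± 0.06 on day 9. The day 9 values were 0.63 to 1.02 for the cytochrome b5 genes DICSQDRAFT_103543, DICSQDRAFT_57100 and DICSQDRAFT_133592, and 0.87 ± 0.12 and 0.99 ± 0.08 for the b5 reductases DICSQDRAFT_177102 and DICSQDRAFT_130873. DICSQDRAFT_136212 (0.05 ± 0.07) and DICSQDRAFT_171200 (-0.42 ± 0.20) were not called. For wood on day 16, 2 of the 8 were higher and 2 lower (median -0.14), against 29.7% and 30% of all tested genes. With library size as the only scaling that split was 6 higher and 0 lower. On spruce against aspen on day 16 only the cytochrome b5 genes DICSQDRAFT_57100 (0.41 ± 0.10) and DICSQDRAFT_136212 (0.36 ± 0.10) were higher. Over all tested genes 11.5% were called higher in that comparison.

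Among 162 genes described as P450 or CYP, the demethylase ranked 22nd by mean RPKM on spruce on day 16 and 13th on spruce on day 9. On aspen it ranked 78th on day 16 and 17th on day 9, and on non-woody material between 124th and 154th. The 3 highest P450 genes by mean RPKM over all libraries were DICSQDRAFT_154131, DICSQDRAFT_168992 and DICSQDRAFT_55106. DICSQDRAFT_168992 was higher on wood on both days (2.65 ± 0.09 and 4.08 ± 0.10 on days 16 and 9) but lower on spruce than on aspen on day 16 (-0.36 ± 0.12, adjusted p = 0.0401). DICSQDRAFT_154131 (-0.68 ± 0.08 and -1.10 ± 0.08) and DICSQDRAFT_55106 (-1.004 ± 0.16 and -0.79 ± 0.16) were lower on wood. Of the 156 other P450 genes tested, 76 were higher and 27 lower on wood on day 16 (median 0.37), against 29.7% and 30% of all tested genes. On day 9, 76 were higher and 35 lower (median 0.40), against 37.4% and 34.2%. Between spruce and aspen on day 16, 20 were higher and 22 lower, close to the 11.5% and 12% over all tested genes.

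The genes most like the demethylase were sought by Pearson's r over the 8 group means of log2 CPM (reads scaled to TMM library size), among 10203 genes with a mean of at least 10 reads. For the demethylase these means differ most between wood and non-woody material, on which the 3 genes were taken to be chosen, so a high r between them is built into the choice. It is a description only, and 230 genes had an r of at least 0.95. Gene 127802 came second (r = 0.994), DICSQDRAFT_162100 sixth (0.991) and gene 63210 at place 13 (0.988). The other genes of the top 10 were DICSQDRAFT_156213 (0.995), the P450 DICSQDRAFT_172711 (0.993), a Clavaminate synthase-like protein (DICSQDRAFT_181576, 0.992), DICSQDRAFT_173971 (0.992), a HAD-like protein (DICSQDRAFT_109302, 0.990), DICSQDRAFT_126967 (0.988), DICSQDRAFT_174921 (0.988) and a norsolorinic acid reductase (DICSQDRAFT_66487, 0.988). DICSQDRAFT_107694 came at place 60 (0.974), DICSQDRAFT_88133 at place 323 (0.939) and the other demethylase gene DICSQDRAFT_124779 at place 2254 (0.708). The lipase DICSQDRAFT_137620 had an r of -0.87. The ranking is not stable, since 6 of the top 10 stayed with log2(RPKM + 1) and 0 of them with Spearman's rho over the 16 libraries, by which gene 63210 came first (0.974).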

How the data were processed

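RNA-seq was measured in 16 libraries, 2 for each of 4 substrates on 2 days. The deposited tables hold, per the file headers, unique read counts per gene model, RPKM and coverage in percent of the model, all made by the authors. The counts summed to the stated total of each library and RPKM recomputed from them equalled the deposited RPKM. For the aligner, the counter and the genome, names and versions are not given here by any source used. Locus names are built from protein numbers, and 11371 of 11410 matched the RefSeq list (assembly Dichomitus squalens v1.0), used for gene order only.

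Counts were tested with edgeR 4.0.16 in R 4.3.3 (quasi-likelihood F-test, TMM, filterByExpr with a minimum count of 10 and total of 15, robust, 1 mean per group, 8 residual degrees of freedom), which kept 10584 genes and removed 826. Log2 fold changes above 0 are higher in the group named first, or on day 16. The biological coefficient of variation common to all genes was 0.0982. The standard error is the size of the log2 fold change over the square root of F. All 13 contrasts were fitted over all genes, and 10 were tested for the 3 genes. The fit was tested on simulated data.

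The 3 genes, the lists and the contrasts were chosen with earlier results of these data known. The ergosterol and redox lists came from words in the descriptions and KEGG matches, for which an E-value limit of 1e-50 was set, and the 3-keto steroid reductase step added, after the files were seen. Named genes are the 3 genes, flanking genes with a description or a call in the same direction, all genes of the 2 lists, the 3 highest P450 genes and the 10 genes most like the demethylase. Alternatives were other scalings and filters, DESeq2 1.42.0, limma 3.58.1 on log2(RPKM + 1) and log2(RPKM + 0.1), a replicate block, the compared groups alone and leaving out each library.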

Additional observations from a re-analysis of the deposited data

Results flagged for a closer look

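The day effect differed between substrates in 5 results, each by the test of the difference itself (edgeR's quasi-likelihood test with Benjamini-Hochberg adjustment). Spruce minus aspen, the difference on the log2 scale was 2.50 for DICSQDRAFT_147974, 2.09 for DICSQDRAFT_63210 and 2.24 for DICSQDRAFT_127802, as all 3 fell less on spruce than on aspen. All alternatives kept these 3 calls, with adjusted p of at most 0.00634, 0.00128 and 0.0041. Wheat bran minus cotton seed hulls, it was -2.24 for DICSQDRAFT_147974 and -3.60 for DICSQDRAFT_63210, with adjusted p of up to 0.207 and 0.000134 over the alternatives.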

How the results depend on the processing

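In the 10 contrasts tested, the 3 genes were refitted 412 times. Direction and call held in 384 of these, 10 lost a call, 2 gained a call and 16 changed sign without a call. Scaled to library size only, the median over all tested genes lay between -0.22 and 0.51 over the contrasts, against -0.02 and 0.03 with TMM, and it moved by over 0.1 in 10 contrasts. For spruce against aspen on day 9 DICSQDRAFT_147974 changed sign with library size alone (0.013) and with limma at added RPKM of 1 (0.0081) and 0.1 (0.0081), and DICSQDRAFT_63210 likewise (0.037, 0.0351 and 0.0352). In the same order of alternatives DICSQDRAFT_147974 changed sign for wheat bran against cotton seed hulls on day 16 (0.19, 0.071 and 0.14) and for the day effect on cotton seed hulls (-0.19, -0.047 and -0.038). For the difference of day effects, wheat bran minus cotton seed hulls, DICSQDRAFT_147974 lost its call with median-of-ratios size factors (-2.22, adjusted p = 0.0515), library size alone (-2.001, 0.0653) and no filter (-2.23, 0.0503), and DICSQDRAFT_127802 gained one with limma and 0.1 added (-1.18, adjusted p = 0.0497).

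Leaving out 1 library at a time gave, for wheat bran against cotton seed hulls on day 16, -0.71 to 0.061 for DICSQDRAFT_147974, -0.88 to -0.21 for DICSQDRAFT_63210 and -0.054 to 0.25 for DICSQDRAFT_127802. For DICSQDRAFT_147974 it gave -0.49 to 0.89 for the day effect on cotton seed hulls and -3.09 to -1.71 for wheat bran minus cotton seed hulls.

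The numbers of genes called moved as follows. Spruce against aspen on day 9 gave 2265, with 3510 for library size alone, 376 for the compared groups alone and 1290 to 2400 without 1 library (1290 without aspen replicate 2). On day 16 it gave 2483, and 1306 to 2042 without 1 library (1306 and 1620 without spruce replicates 2 and 1, 1343 without aspen replicate 2). Wheat bran against cotton seed hulls gave 3574 on day 9, and 2239 to 2532 without 1 library. On day 16 it gave 3320, with 6473 for library size alone, 6541 and 6624 for limma with 1 and 0.1 added, and 2108 to 2291 without 1 library. The share higher was then 41.6%, against 90.3%, 90.6% and 90.6% under those alternatives. The day effect on wheat bran gave 1830, with 3190 for the compared groups alone and 878 to 1132 without 1 library, and that on cotton seed hulls 3004, with 1798 to 2178 without 1 library. Spruce minus aspen gave 2013, with 967 for the compared groups alone. Wheat bran minus cotton seed hulls gave 994, with 1628 for library size alone, 1535 and 1610 for limma with 1 and 0.1 added, 2274 for the compared groups alone and 538 to 647 without 1 library. The ergosterol list, an alternative added after seeing the data, had 3 genes lower for spruce against aspen on day 16 with library size alone (5 with TMM). For wood it had 2 lower on day 9 with median-of-ratios size factors and 0 with library size alone (1 with TMM), and 14 higher and 2 lower on day 16 with library size alone. For spruce minus aspen it had 4 higher with library size alone (9 with TMM). By TMM-scaled CPM, DICSQDRAFT_147974 and DICSQDRAFT_63210 kept 4 of the 8 places in the order of the group means each. The causes were not tested.

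Replicate numbers in the labels name no shared source. Same-numbered libraries correlated in their deviations between -0.0576 and 0.358 over 28 pairs of groups (median 0.0158, 1 over 0.1). With the replicate block the demethylase lost its call for wheat bran minus cotton seed hulls (-2.24, adjusted p = 0.0704), no other call of the 3 genes changed, and the numbers called ran from 1040 to 7597 over the contrasts. The planned look at proteins and promoters was not run, since the tables used here hold none.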

Other observations

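Within groups, the replicate ratios of the 3 genes had the same sign in 4 of the 8 groups, which were aspen, wheat bran and cotton seed hulls on day 9 and aspen on day 16. The widest log2 ratio of replicate 1 to replicate 2 was 1.42 for DICSQDRAFT_147974 on cotton seed hulls on day 9, where it rests on 14 and 5 reads. It was 1.05 for DICSQDRAFT_127802 on aspen on day 16, a group in which DICSQDRAFT_147974 (0.21) and DICSQDRAFT_63210 (0.15) differed far less. DICSQDRAFT_63210 was widest on cotton seed hulls on day 9, at 0.70.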
